A study of Mus musculus with 17 samples.

Results

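The TRAF family (TNF receptor-associated factors) was examined in cDC1s and cDC2s, the 2 types of conventional dendritic cells, after culture with medium of live tumor cells or with debris of apoptotic or necroptotic ones. Its members are the 7 genes Traf1 to Traf7, taken by name from the 31091 gene identifiers of the count table, and 7 of 7 passed the filter on low counts in every fit. The family was chosen by a measured value, the increase with RIPK3 over BimS debris in cDC1s. Traf4 had the largest one among well-measured genes with an adjusted p under 0.05 and groups that did not overlap. The values of that comparison are therefore given as a description, without p-values. Counts of genes past the threshold in it are a description too.

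RNA was sequenced from 17 samples in 6 groups, each cDC type being cultured for 6 h with medium of WT, TC-1-iBimS or TC-1-iRIPK3 cells. The groups held 3 samples, except that of cDC2s with RIPK3 debris, which held 2. TC-1 is a lung epithelial tumor cell line of C57BL/6 mice, and TC-1-iBimS and TC-1-iRIPK3 are clones of it in which the inducer cumate switches on BimS, causing apoptosis, or a self-assembling RIPK3, causing necroptosis. Cumate was given to all 3 lines, so that medium of live WT cells carried the inducer too. The medium was not centrifuged and went onto the dendritic cells with everything in it. The dendritic cells were CD11c+ cells of pooled spleens of female C57BL/6JRj mice, bought at 8 weeks of age, that carried FLT3L-secreting B16 tumors, were kept with GM-CSF in all groups, and were sorted into cDC1s and cDC2s only after the 6 h of culture. A cDC1 and a cDC2 sample can thus come from 1 culture, and the cDC2 samples are separate libraries but not a separate experiment. Levels are CPM, counts scaled to 1 M per library with TMM, a correction for library composition, over all 17 samples, and errors are SD. Differences are log2 fold changes with their SE from edgeR's quasi-likelihood test, called at an adjusted p under 0.05 (Benjamini-Hochberg over all genes).

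TRAF proteins carry signals from receptors on the cell surface into the cell. TRAF2, TRAF3, TRAF5 and TRAF6 bind the tails of TNF receptors such as CD40 or, for TRAF6, the complexes of Toll-like and IL-1 receptors, where they act as ubiquitin ligases or bring such ligases in, and so switch on NF-kB and MAP kinases. TRAF1 has no RING domain and is itself a product of NF-kB signaling, TRAF4 is known mainly for roles in cell polarity, migration and TGF-beta signaling, and TRAF7 carries WD40 repeats in place of the MATH domain that the other members share. In dendritic cells, CD40 and Toll-like receptors are the best known receptors that use them.

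The sorted cells carried the markers of their types. The 8 cDC1 markers, which include Xcr1 and Clec9a, summed to between 1410 and 1730 CPM in the cDC1 samples and to between 98.9 and 131 CPM in the cDC2 samples. The 7 cDC2 markers, which include Sirpa and Cd209a, summed to between 281 and 372 CPM in cDC2s and to between 2.35 and 4.02 CPM in cDC1s. Libraries held between 16.1 and 21.6 M counts. The lowest count of any member in any sample was 319, for Traf5 in a cDC2 sample with RIPK3 debris.

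Traf4 lies on the minus strand of chromosome 11 (GRCm39, chr11:78048186-78056417, ENSMUSG00000017386) and shares no bases with another annotated gene. Traf1 lies on the minus strand of chromosome 2 (chr2:34831762-34851837, ENSMUSG00000026875). The promoters of these 2 members are shown because Traf4 is the member on which the family was chosen and Traf1 the one with the highest level, which passed no test between media. Each runs from 250 bases before to 50 bases after the start site given by RefSeq, from a table built on GRCm38.p6, which held 7 of 7 members. Each has 1 exact match in GRCm39, at chr11:78056327-78056626 for Traf4 and chr2:34851735-34852034 for Traf1. They are written 5′ to 3′ on the gene's strand, with capitals for matches of GGGNNNNNCC, a loose form of the NF-kB motif, on either strand.

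Traf4: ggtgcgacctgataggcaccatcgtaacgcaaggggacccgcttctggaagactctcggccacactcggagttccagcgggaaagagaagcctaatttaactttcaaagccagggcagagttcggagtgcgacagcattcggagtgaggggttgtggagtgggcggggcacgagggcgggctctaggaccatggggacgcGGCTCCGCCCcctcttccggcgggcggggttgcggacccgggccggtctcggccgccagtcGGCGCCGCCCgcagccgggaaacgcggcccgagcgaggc

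Traf1: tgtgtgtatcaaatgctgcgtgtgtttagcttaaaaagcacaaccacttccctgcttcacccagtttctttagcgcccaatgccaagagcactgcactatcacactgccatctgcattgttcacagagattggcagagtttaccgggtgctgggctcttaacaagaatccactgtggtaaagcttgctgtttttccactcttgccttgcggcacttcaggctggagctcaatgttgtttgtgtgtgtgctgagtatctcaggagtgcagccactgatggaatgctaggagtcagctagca

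The Traf4 promoter held 2 matches of the NF-kB letters, each overlapping a GC box (GGGCGG, either strand), and 5 GC boxes in all. The Traf1 promoter held 0 NF-kB matches. These letters occurred in 50.8% and the GC box in 35.7% of the 32851 promoters of the table, so their presence sets no promoter apart. None of the 7 member promoters held the AP-1 letters TGANTCA, found in 7.81% of all promoters, or the interferon response letters GAAANNGAAA, found in 3.44%. A match is a stretch of letters and not a binding site, and a missing match says nothing of the factor.

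Traf4 was the member that stood out with necroptotic debris, in both types of cDCs. In cDC1s, the 3 samples with WT medium held 46.4, 47.5 and 42.5 CPM and the 3 with BimS debris 45.5, 43.4 and 39.9 CPM. The 3 cDC1 samples with RIPK3 debris held 80.0, 82.8 and 83.1 CPM. These 3 samples lay close together and far above the other 6, which overlapped. The level with RIPK3 debris (82.0 ± 1.67 CPM, n = 3) was 1.9-fold that with BimS debris, a log2 fold change of 0.93, and 1.8-fold that with WT medium, a log2 fold change of 0.85. By the rule that chose the family Traf4 came first, with Map9 (0.88), Ddit4 (0.82), Tex14 (0.81) and Tiparp (0.76) just below it. By the size of the increase alone, Traf4 was 3rd among the 7882 well-measured cDC1 genes. Of the 7 members 1, Traf4, was past the threshold between RIPK3 and BimS debris in cDC1s, beside 4.15% of all genes tested there. This count follows from the choice of the family.

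The cDC2 samples, which the choice did not use, gave Traf4 a similar pattern on a higher level. The samples with WT medium held 175, 172 and 197 CPM, those with BimS debris 191, 197 and 214 CPM, and the 2 with RIPK3 debris 322 and 327 CPM. Both RIPK3 samples lay above the other 6 samples, among which WT and BimS overlapped. Traf4 rose by 0.84 on the log2 scale with RIPK3 debris over WT medium (SE 0.0887, edgeR adjusted p = 2.08e-06, 95% interval 0.66 to 1.03), which is 1.79-fold. It rose by 0.70 over BimS debris (SE 0.0887, edgeR adjusted p = 0.000742, 95% interval 0.51 to 0.89), which is 1.62-fold. This was the 11th largest increase among the 7779 well-measured cDC2 genes, those whose log2 CPM averaged 3 or more. Traf4 was the 1 called member of 7 in each of these comparisons, beside 7.21% of all genes between RIPK3 debris and WT medium and 0.379% between RIPK3 and BimS debris. The call over BimS debris was lost in 1 of 16 alternatives, without RIPK3 replicate 2, where the log2 fold change was 0.69, the adjusted p was 0.0993 and 0 of 18628 genes were called. Without RIPK3 replicate 1 the call held, at 0.71 (adjusted p = 0.0376), and the lowest adjusted p was 1.5e-48. Leaving out either of them left 1 RIPK3 sample, which the fit assumed to vary like the samples of the other groups.

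Within each replicate number the direction was the same. The ratio of RIPK3 over BimS debris was 1.76, 1.91 and 2.08 in the 3 cDC1 sets and 1.69 and 1.67 in the 2 complete cDC2 sets. Over WT medium it was 1.73, 1.74 and 1.95 in cDC1s and 1.84 and 1.9 in cDC2s. With BimS debris over WT medium, Traf4 differed by -0.08 in cDC1s, as a description, and by 0.14 in cDC2s (SE 0.0806, edgeR adjusted p = 0.387). In a fit with the replicate number as a block, the cDC2 value was again 0.14, with an adjusted p of 0.00665. The block raised the calls over all genes as well: in cDC2s from 7.01% to 21.3% for BimS debris over WT medium, from 7.21% to 21.4% for RIPK3 debris over WT medium and from 0.379% to 14.3% for RIPK3 over BimS debris. With it 3, 3 and 4 of the 7 members were called in these comparisons, against 0, 1 and 1 without it, and the blocked calls of single members are to be read beside these shares.

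**Figure D1:**
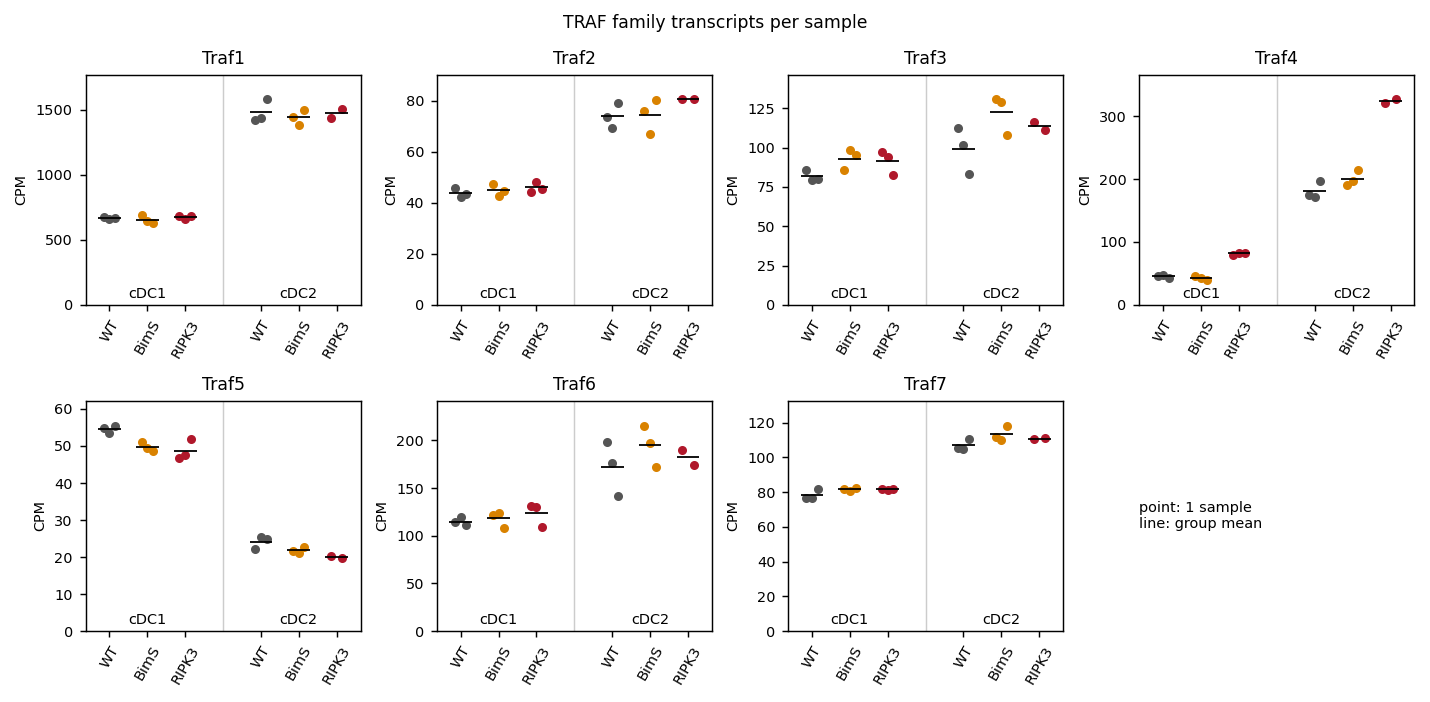
Level of each TRAF family member in CPM (vertical axis, linear from 0) in every sample, by cDC type and medium. Each point is 1 sample and each line a group mean. Traf4 lay between 80.0 and 83.1 CPM in cDC1s and between 322 and 327 CPM in cDC2s with RIPK3 debris, above all other samples of the same cell type.

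Tumor cell RNA could reach the sorted cells with the debris. Of 20 genes of adherent tumor cells, 19 were in the table, and they summed to between 7.08 and 8.62 CPM in cDC1s with WT medium, 8.39 and 10.8 with BimS debris and 8.12 and 12.2 with RIPK3 debris. In cDC2s the sums were 9.82 to 12.2, 9.83 to 12.2 and 9.21 to 14.4 CPM. Krt8, Col1a1, Col1a2, Col3a1, Col5a2, Ccn1 and Lox were at 3 counts or fewer in every sample. The part of tumor cell RNA in the values of Traf4 was not tested. The summed markers of 6 B cell genes were higher in cDC2s with RIPK3 debris (45.5 to 46.5 CPM) than with BimS debris (27.0 to 33.0 CPM) or WT medium (34.8 to 41.1 CPM), nearly all of it from Ighm, while Cd79a averaged 0.273 CPM there. In cDC1s the sums were 19.7 to 25.5 CPM with WT medium, 13.9 to 19.9 with BimS debris and 16.2 to 22.6 with RIPK3 debris. The sort took MHC-II+ CD11c+ cells by XCR1 and CD8α or by SIRPα and CD11b, a gate that B cells should not pass. The part of B cells in the values of Traf4 was not tested. In bulk samples a change in the share of cells and a change in RNA per cell cannot be told apart.

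The genes whose levels ran most like Traf4 were sought among the 7782 well-measured genes, as a description. Over all 17 samples they included Ddit4, a stress-induced inhibitor of mTORC1 (Pearson's r = 0.988), and Csrnp1 (r = 0.987). Over the 9 cDC1 samples they were Erp44 (0.986), Chic2 (0.983), Rnf19b (0.979), Ddit4 (0.968) and Ppp2r5a (0.968). Over the 8 cDC2 samples they were Fos (0.99), a part of AP-1, S1pr2 (0.982), Flot1 (0.976), Rab12 (0.973) and Phc2 (0.966). The lists of the cell types had no gene in common. All of these points share libraries and media, and over 17 samples the difference between the cell types enters each coefficient.

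Traf1 and Traf2, which work together with the ubiquitin ligases cIAP1 (Birc2) and cIAP2 (Birc3) at TNF receptors, did not pass the test in any comparison between media without the replicate block. Traf1 held 667 ± 6.84 CPM in cDC1s with WT medium, 655 ± 31.8 CPM with BimS debris and 675 ± 14.8 CPM with RIPK3 debris (n = 3 each). In cDC2s it held 1480 ± 87.8, 1440 ± 58.5 (n = 3 each) and 1470 ± 48.6 CPM (n = 2). The groups of each cell type overlapped, and the 95% interval of RIPK3 debris over WT medium ran from -0.08 to 0.10 in cDC1s and from -0.18 to 0.17 in cDC2s. Traf2 held 44.0 ± 1.79, 45.0 ± 2.4 and 46.0 ± 2.01 CPM in cDC1s, with overlapping groups. In cDC2s it held 73.7, 69.5 and 79.2 CPM with WT medium, 76.3, 66.9 and 80.5 CPM with BimS debris, and 80.7 CPM in both samples with RIPK3 debris. Both RIPK3 samples were above all others by a margin smaller than the range of either other group. With the replicate block, Traf2 was higher with RIPK3 debris by 0.18 over WT medium (edgeR adjusted p = 0.0205) and by 0.17 over BimS debris (adjusted p = 0.0335), against 0.12 in each without it (adjusted p = 0.578 and 0.781). Over 16 alternatives the adjusted p ran from 0.0205 to 0.931 for the one and from 0.0335 to 0.987 for the other.

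Traf3, a brake on the noncanonical NF-kB pathway that also serves interferon induction, had the largest difference of the members with apoptotic debris over WT medium. In cDC1s it held 86.1, 79.7 and 80.3 CPM with WT medium, 85.7, 98.4 and 95.1 CPM with BimS debris and 97.2, 94.2 and 82.4 CPM with RIPK3 debris. It was the 1 called member of 7 with BimS debris over WT medium in cDC1s, beside 13.2% of all genes. The increase was 0.18 (SE 0.0604, edgeR adjusted p = 0.0383), but 1 BimS sample lay below the highest WT sample. The call was lost without any 1 of 4 samples: WT replicate 2 (adjusted p = 0.14) or 3 (0.148) or BimS replicate 2 (0.226) or 3 (0.152), and over 17 alternatives the adjusted p ran from 0.00539 to 0.563. With RIPK3 debris over WT medium the difference in cDC1s was 0.15 (SE 0.0606, edgeR adjusted p = 0.095), and 0.15 with the replicate block (adjusted p = 0.0291), which called 21.0% of all genes there. Without the RIPK3 replicate 3, the lowest of that group, it was 0.21 (adjusted p = 0.00305), and over 17 alternatives the adjusted p reached 0.926.

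In cDC2s Traf3 held 112.3, 101.7 and 83.5 CPM with WT medium, 131, 129 and 108 CPM with BimS debris and 116 and 111 CPM with RIPK3 debris. In every replicate number the BimS sample was the highest. With BimS debris over WT medium the difference was 0.30 (SE 0.104, edgeR adjusted p = 0.0908), and with the replicate block 0.31 (adjusted p = 2.2e-09). Without WT replicate 1 it was 0.40 (adjusted p = 0.0148) and without BimS replicate 3 it was 0.39 (adjusted p = 0.0368), and over 16 alternatives the adjusted p ran from 2.2e-09 to 0.39. With RIPK3 over BimS debris it was -0.11 (adjusted p = 0.854) and with the block -0.21 (edgeR adjusted p = 0.00276). Of the 7 members 0 were called by edgeR with BimS debris over WT medium in cDC2s without the block, beside 7.01% of all genes. At an unadjusted p under 0.05 there was 1, Traf3, and DESeq2 called 0.

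Traf5, a close relative of Traf2 that also binds CD40, had lower values with both kinds of debris in cDC1s and with RIPK3 debris in cDC2s. In cDC1s it held 54.8, 53.6 and 55.5 CPM with WT medium, 51.1, 49.4 and 48.7 CPM with BimS debris and 46.7, 47.6 and 51.9 CPM with RIPK3 debris. All 6 debris samples lay below all 3 WT samples. With RIPK3 debris over WT medium it fell by 0.17 on the log2 scale (SE 0.0602, edgeR adjusted p = 0.0451) and was the 1 called of the 6 members other than Traf4, beside 16.5% of all genes. Traf4 was past the threshold there too, on the cDC1 samples that chose the family, so it is not counted. The call is at the threshold: it was lost without any 1 of WT replicates 1, 2 and 3, BimS replicate 3 or RIPK3 replicates 1 and 2, and the adjusted p ran from 0.00407 to 0.172 over 17 alternatives. With BimS debris over WT medium the difference was -0.14 (SE 0.0599, edgeR adjusted p = 0.152). On the deposited log2 values, limma called Traf5 there (-0.20, adjusted p = 0.0279) and not Traf3 (0.11, adjusted p = 0.275), and over 17 alternatives the adjusted p of Traf5 ran from 0.0279 to 0.468. In cDC2s Traf5 held 22.2, 25.5 and 24.9 CPM with WT medium, 21.7, 21.1 and 22.7 CPM with BimS debris and 20.3 and 19.8 CPM with RIPK3 debris. The groups with WT medium and BimS debris overlapped, with a difference of -0.15 (SE 0.0986, edgeR adjusted p = 0.475). The RIPK3 samples lay below the rest, with a difference from WT medium of -0.27 (SE 0.112, edgeR adjusted p = 0.192), and of -0.25 with the replicate block (adjusted p = 0.0399, within a range of 0.0399 to 0.527 over 16 alternatives).

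Macrophage genes also had lower values with debris in cDC1s, where 8 of them summed to between 8.59 and 10.6 CPM with WT medium, 4.38 and 4.69 with BimS debris and 3.58 and 5.53 with RIPK3 debris. In cDC2s the sums were 17.0 to 28.1, 17.4 to 20.2 and 14.6 to 18.9 CPM. In cDC1s with WT medium Fcgr1 gave most of the sum (5.01 ± 0.673 CPM, n = 3), and Mertk was at 0.152 ± 0.221 CPM. The part of these cells in the values of Traf3 and Traf5 was not tested. Markers of T and NK cells summed to at most 1.64 CPM and those of neutrophils to at most 2.79 CPM in any sample, and those of plasmacytoid dendritic cells to 65.0 to 84.4 CPM in cDC1s and 173 to 217 CPM in cDC2s.

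Traf6, the member that serves Toll-like and IL-1 receptors, and Traf7, a partner of the kinase MEKK3 (Map3k3), did not pass the test between media with all samples and no block. Traf6 held 115 ± 4.26, 118 ± 8.39 and 123 ± 12.7 CPM in cDC1s with WT medium, BimS and RIPK3 debris (n = 3 each). With RIPK3 debris over WT medium in cDC1s the difference was 0.10 (SE 0.0621, edgeR adjusted p = 0.337). Without RIPK3 replicate 3, the lowest of that group, it was 0.18 and called (adjusted p = 0.00951), within a range of 0.00951 to 0.926 over 17 alternatives. In cDC2s it held 198, 177 and 142 CPM with WT medium, 216, 197 and 172 CPM with BimS debris and 190 and 175 CPM with RIPK3 debris. The 3 replicate numbers of cDC2s lay in the same order with both WT medium and BimS debris, and the spread between them was larger than the difference between media. Without the block, BimS debris over WT medium gave 0.17 (SE 0.111, edgeR adjusted p = 0.461), and with it 0.18 (adjusted p = 0.00035, within a range up to 0.853 over 16 alternatives). RIPK3 over BimS debris gave -0.09 without and -0.20 with the block (edgeR adjusted p = 0.882 and 0.00165).

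Traf7 held 78.4 ± 3.13, 81.7 ± 1.08 and 81.7 ± 0.191 CPM in cDC1s and 107 ± 3.36, 113 ± 4.51 (n = 3 each) and 111 ± 0.521 CPM (n = 2) in cDC2s, in the order WT, BimS, RIPK3. Its groups overlapped in each cell type, and the 95% interval of RIPK3 debris over WT medium was -0.05 to 0.16 in cDC1s and -0.13 to 0.23 in cDC2s. Traf7 shares 1193 exon bases with Caskin1 on the opposite strand and 507 with Rab26 on its own. These neighbours held at most 0.791 and 1.02 CPM in any sample.

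**Figure D2:**
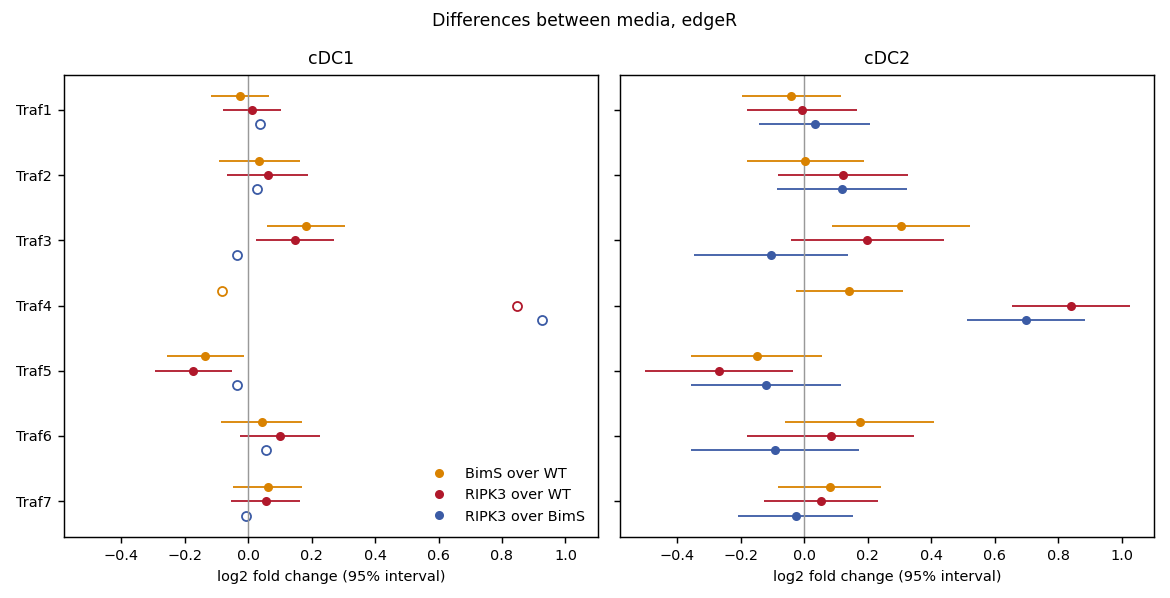
Log2 fold change (horizontal axis) of each member between media in cDC1s (left) and cDC2s (right). Filled points carry 95% intervals from the edgeR fit, and open points are values given as a description because they share samples with the comparison that chose the family. Traf4 lay at 0.84 and 0.70 in cDC2s with RIPK3 debris, over WT medium and BimS debris, while the other members lay between -0.27 and 0.30.

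The size of the response was compared between the cell types with an interaction term. Of the 6 members other than Traf4, 0 were called for RIPK3 debris over WT medium, BimS debris over WT medium or RIPK3 over BimS debris, beside 1.14%, 0.87% and 0.0314% of all genes tested with edgeR. At an unadjusted p under 0.05 there were 0 of them in each, and DESeq2 called 0. For Traf4, whose cDC1 values chose the family, the difference of responses (cDC1 less cDC2) is a description and was -0.01 (SE 0.106) for RIPK3 debris over WT medium, -0.23 (SE 0.1) for BimS debris over WT medium and 0.22 (SE 0.105) for RIPK3 over BimS debris. For the other members these differences lay between -0.14 and 0.14.

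The 2 cell types differed in the level of every member without debris. With WT medium 7 of 7 members were called between cDC1s and cDC2s, beside 46.2% of all genes, with 6 lower in cDC1s and 1, Traf5, higher. Traf4 differed most, being lower in cDC1s by 2.01 on the log2 scale (SE 0.0725, edgeR adjusted p = 1.44e-19), or 0.249 of its cDC2 level. With RIPK3 debris the cDC1 level of Traf4 (82.0 CPM) was still below every cDC2 sample of any medium. Traf1 differed by -1.16 (adjusted p = 5.92e-16), Traf2 by -0.77 (adjusted p = 8e-10), Traf6 by -0.60 (adjusted p = 3.83e-05) and Traf7 by -0.46 (adjusted p = 2.21e-07). Traf5 was 2.25-fold higher in cDC1s, a difference of 1.17 (SE 0.0738, edgeR adjusted p = 6.47e-14). Traf3 differed least, by -0.28 (SE 0.0892, adjusted p = 0.0101), with overlapping groups, and without the cDC2 WT replicate 1 it was -0.18 (adjusted p = 0.103), within a range of 0.000109 to 0.529 over 25 alternatives.

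Between genes, levels were compared as CPM per kb of exons with WT medium. In cDC1s the order was Traf1 (75.2 ± 0.771), Traf6 (11.1 ± 0.411), Traf3 (10.1 ± 0.432), Traf7 (10.0 ± 0.4), Traf4 (8.47 ± 0.489), Traf2 (5.73 ± 0.233) and Traf5 (4.85 ± 0.0867), n = 3 each. Traf3 and Traf7 did not differ beyond their spread. In cDC2s Traf1 (167 ± 9.89) was followed by Traf4 (33.7 ± 2.53), Traf6 (16.6 ± 2.72), Traf7 (13.7 ± 0.43), Traf3 (12.1 ± 1.79), Traf2 (9.66 ± 0.633) and Traf5 (2.14 ± 0.156). Traf6, Traf7 and Traf3 overlapped in that order. Traf4 was thus the fifth member in cDC1s with WT medium and was second in cDC1s with RIPK3 debris (15.3 ± 0.312) and in cDC2s. The order depends on the length used. Per kb of the longest transcript, Traf7 was second in cDC1s with WT medium (18.7), before Traf6 (14.3) and Traf3 (11.1), and in cDC2s Traf7 (25.5) came before Traf6 (21.4) and Traf2 (15.7) before Traf3 (13.4). By this length Traf7 (19.5) came before Traf4 (19.0) in cDC1s with RIPK3 debris, so that Traf4 was 3rd.

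**Figure D3:**
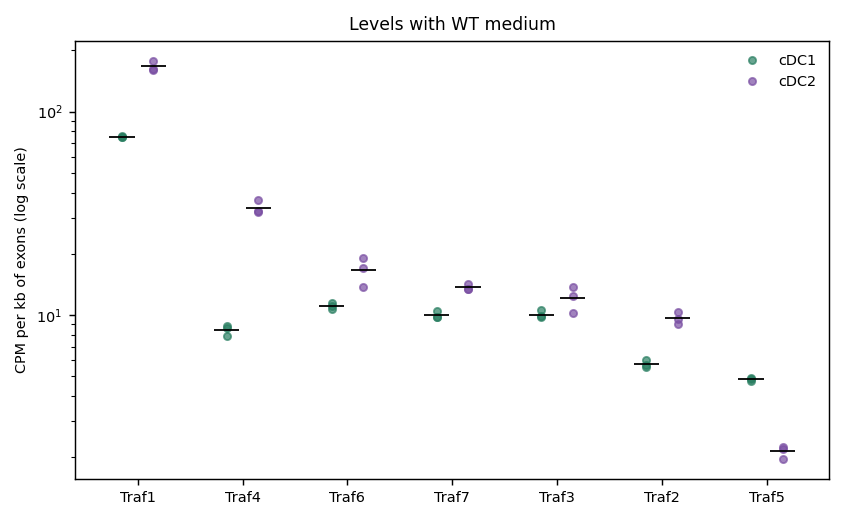
Level of each member with WT medium in CPM per kb of exons (vertical axis, log scale) in cDC1s and cDC2s. Each point is 1 sample and each line a group mean, with 3 samples per cell type. Traf1 was highest in both, at 75.2 and 167, and Traf5 alone was higher in cDC1s.

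Of 11 NF-kB genes, 10 were lower and none higher in cDC1s than in cDC2s with WT medium (edgeR), where 4518 of all 19082 genes tested were lower and 4290 higher. Nfkbia, the inhibitor that NF-kB itself induces, held 324 ± 16.9 CPM in cDC1s and 989 ± 95 CPM in cDC2s (n = 3 each), and Nfkb1 1230 ± 27.3 and 2420 ± 135 CPM. Nfkbia and Il2rg were the genes most like Traf1 over the 17 samples (r = 0.998 each), a description that the cell type difference dominates. Of 9 genes of mature dendritic cells, 6 were lower and 2 higher in cDC1s, beside the same counts over all genes. Ccr7, the receptor that guides mature dendritic cells to lymph nodes, held 552 ± 46 CPM in cDC1s and 1310 ± 164 CPM in cDC2s. The part of maturation in the members' differences was not tested.

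The genes around the family were described from lists, by their counts called with RIPK3 debris over WT medium in edgeR, to be read beside 16.5% of all genes in cDC1s and 7.21% in cDC2s. Of the TNF receptors that bind TRAFs, 1 of 15 tested was higher and 4 lower in cDC1s (median log2 fold change 0.01, against -0.01 for all genes), and 2 of 18 were higher and 2 lower in cDC2s (median -0.11, against -0.02). Tnfrsf1a, the main receptor of TNF, rose from 128 ± 7.18 to 164 ± 9.52 CPM in cDC1s and from 67.8 ± 7.7 to 109 ± 16.4 CPM in cDC2s, by 0.35 (edgeR adjusted p = 3.41e-06) and 0.68 (adjusted p = 0.000505). Cd40, the receptor by which T cells license dendritic cells, fell from 113 ± 6.14 to 91.4 ± 7.12 CPM and from 88.4 ± 7.78 to 62.7 ± 1.18 CPM, by 0.31 (edgeR adjusted p = 0.000167) and 0.49 (adjusted p = 0.0027). Tnfrsf13b (TACI, a receptor of BAFF and APRIL) fell by 0.64 and 0.57, and Tnfrsf12a fell by 0.48 in cDC1s. Tnfrsf1b, the second TNF receptor, which binds TRAF2 directly, did not pass the test, at -0.14 (adjusted p = 0.0801) and 0.16 (edgeR adjusted p = 0.362). The TNF superfamily ligands had 1 of 14 higher and 1 lower in cDC1s and 2 of 13 lower in cDC2s, where none was higher by edgeR at an unadjusted p under 0.05 either. Tnfsf9 (4-1BB ligand) fell in both, by 0.77 and 0.82, from low levels of 4.31 ± 0.244 and 4.92 ± 0.639 CPM. It shares 192 exon bases with Gm11110 on the opposite strand, which held at most 2.31 CPM in any sample.

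Of the adapters and kinases around TRAFs, 3 of 26 were higher and 1 lower in cDC1s and 5 higher and 3 lower in cDC2s. Tbk1, the kinase that phosphorylates IRF3, rose by 0.43 (edgeR adjusted p = 7.33e-08) and 0.35 (adjusted p = 0.0261), and with it Tank, a TRAF-binding partner of TBK1, by 0.36 in both (edgeR adjusted p = 9.76e-07 and 0.0107). Tank went from 98.6 ± 2.01 to 127 ± 3.15 CPM in cDC1s and from 163 ± 6.27 to 209 ± 4.12 CPM in cDC2s. Tbk1 and Tank were also higher with BimS debris, Tbk1 by 0.44 in each cell type and Tank by 0.29 and 0.34. Ticam1 (TRIF), the adapter of TLR3 and TLR4, rose by 0.19 and 0.34. Ikbkg (NEMO), the regulatory part of the IKK complex, rose by 0.39 and 1.04 (edgeR adjusted p = 4.22e-07 and 2.73e-07), but it shares 526 exon bases with G6pdx on the opposite strand, which went from 179 ± 3.18 to 368 ± 11.5 CPM and from 358 ± 40.5 to 506 ± 1.69 CPM, and the part of such reads was not tested. In cDC2s Irak2, a kinase that acts upstream of TRAF6, rose by 0.53 (edgeR adjusted p = 0.000561) and Map3k5 by 0.52, while Map3k3 fell by 0.36 and Tirap by 0.34. For Irak2 the difference between the cell types was itself called (-0.56, SE 0.0991, edgeR adjusted p = 0.0018), as was that of Ikbkg (-0.66, adjusted p = 0.000193). Tifa, a TRAF-interacting adapter whose log2 CPM averaged under 3, fell in both, by 0.88 and 0.99. It shares 1041 exon bases with Gm56817 and 105 with Gm43654 on the opposite strand, which held at most 0.628 and 0.496 CPM in any sample. Map3k14 (NIK), the kinase that TRAF3 keeps low, differed by -0.09 and -0.08, and neither passed the test.

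Of 23 ubiquitin ligases, deubiquitinases and their cofactors, 3 were higher and 5 lower in cDC1s and 1 higher and 1 lower in cDC2s. Tnip3 (ABIN-3), which binds A20, was near 50% lower in both, going from 52.3 ± 3.99 to 26.3 ± 1.71 CPM in cDC1s (-0.997, edgeR adjusted p = 1.44e-13) and from 85.1 ± 3.96 to 42.7 ± 0.626 CPM in cDC2s (-0.995, adjusted p = 7.48e-07). Tnfaip3 (A20), a deubiquitinase that ends TRAF6 signaling, fell by 0.26 in cDC1s (edgeR adjusted p = 0.000811) and differed by -0.17 in cDC2s (adjusted p = 0.491). Usp25 fell by 0.29 in cDC1s, where Tax1bp1 (0.31), Otud7b (0.25) and Ube2n (0.23), the ubiquitin-conjugating partner of TRAF6, rose. Tnip2 rose by 0.31 in cDC2s. Birc2 and Birc3, the ligases that TRAF2 recruits, did not pass the test, with -0.09 for each in cDC1s and -0.19 and 0.02 in cDC2s.

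Among 8 TRAF-interacting proteins 2 were higher and 2 lower in cDC1s and 1 higher and 1 lower in cDC2s. Beside Tank, Trafd1, an interferon-induced regulator, rose in cDC1s by 0.22, and Traf3ip3 fell from 31.7 ± 1.03 to 19.7 ± 0.767 CPM and from 14.3 ± 0.697 to 7.49 ± 0.293 CPM, by 0.69 (edgeR adjusted p = 2.17e-09) and 0.94 (adjusted p = 0.000505). Traf3ip3 shares 420 exon bases with A130010J15Rik on the opposite strand, which went from 12.8 ± 1.21 to 12.0 ± 1.01 CPM and from 8.88 ± 1.57 to 7.12 ± 1.26 CPM, and the part of such reads was not tested. Of 7 partners of TRAF4, 4 were lower in cDC1s and 1 in cDC2s, and 0 were higher by edgeR, also at an unadjusted p under 0.05. Tgfbr1, the type I receptor of TGF-beta, fell by 0.42 in cDC1s (edgeR adjusted p = 7.8e-06) and differed by -0.44 in cDC2s (adjusted p = 0.105), and Ncf1, a part of the phagocyte NADPH oxidase, fell by 0.30 and 0.68. Ncf1 shares 574 exon bases with Gtf2ird2 on the opposite strand, which went from 12.6 ± 1.08 to 9.84 ± 2.1 CPM and from 9.75 ± 0.636 to 6.27 ± 0.858 CPM, and the part of such reads was not tested. Nod2 fell by 0.23 in cDC1s. Of the 11 NF-kB genes 3 were lower in cDC1s (Rel by 0.31, Nfkb1 by 0.22 and Bcl3 by 0.20) and 0 were called by edgeR in cDC2s, where 1 was higher and 1 lower at an unadjusted p under 0.05. Nfkbia differed by -0.07 and -0.03 and Nfkb2 by 0.07 and 0.11. Of the 6 other proteins with a MATH domain 4 were tested, and Usp7 was higher by 0.16 and Spop and Trim37 lower by 0.36 and 0.35 in cDC1s, with 0 called by edgeR in cDC2s and 1 lower at an unadjusted p under 0.05. The genes of mature dendritic cells had 4 of 9 lower in cDC1s, among them Ccl22 (-1.005), Ccr7 (-0.68) and Cd80 (-0.32), and 0 called by edgeR in cDC2s, where 3 were lower at an unadjusted p under 0.05.

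**Figure D4:**
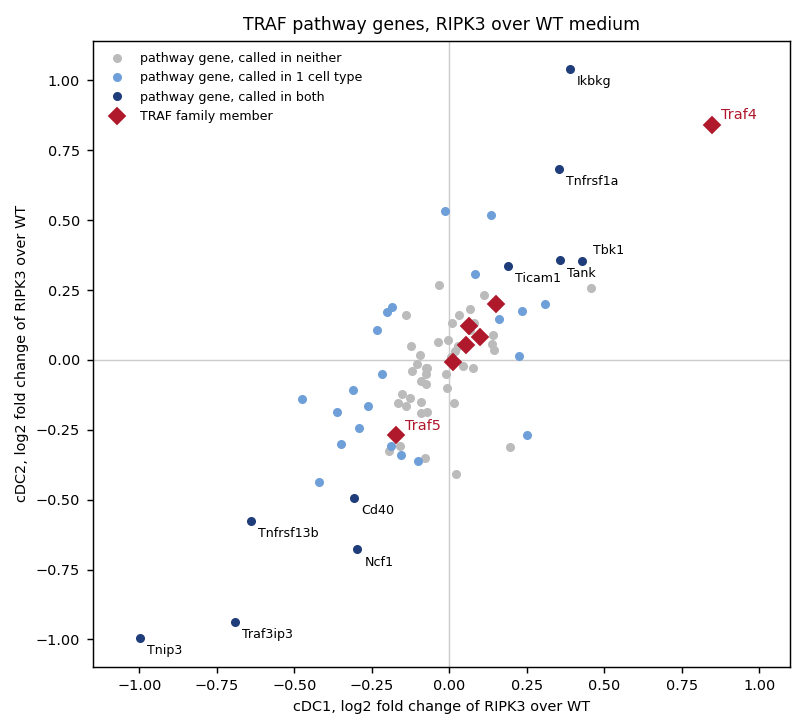
Log2 fold change of RIPK3 debris over WT medium in cDC1s (horizontal axis) and cDC2s (vertical axis). Points are 76 well-measured pathway genes (mean log2 CPM of 3 or more over all 17 samples) and diamonds the 7 TRAF family members. Of the genes, 10 were called in both cell types, 22 in 1 and 44 in neither, and Traf4 lies at 0.85 and 0.84.

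Genes of these lists were also called with BimS debris over the same WT samples. Called with BimS debris were 5 of 15 receptor genes in cDC1s and 3 of 18 in cDC2s, 7 and 5 of 26 adapters and kinases, and 12 and 2 of 23 ubiquitin genes, beside 13.2% and 7.01% of all genes. So were 3 of 14 and 1 of 13 ligands, 4 and 2 of 8 TRAF-interacting proteins and 4 and 1 of 7 partners of TRAF4. NF-kB genes had 3 and 0 of 11, MATH-domain proteins 2 and 1 of 4 and genes of mature dendritic cells 4 and 1 of 9. In cDC1s with BimS debris Nfkb1 fell by 0.34, Cd40 and Tnfaip3 by 0.21 each and Bcl3 by 0.195, while Rel did not pass the test (edgeR adjusted p = 0.0504). Ikbkg was higher with BimS debris by 0.47 in cDC1s and 1.30 in cDC2s, values above those with RIPK3 debris. Tnip3 fell by 0.59 and 0.87, Tifa fell by 0.59 and 0.94, Traf3ip3 fell by 0.36 and 0.56, and Ccr7 fell by 0.56 in cDC1s. Smurf1, a ubiquitin ligase of TGF-beta signaling listed as a partner of TRAF4, was higher with BimS debris in cDC1s by 0.37 (edgeR adjusted p = 6.99e-05) and differed by 0.02 with RIPK3 debris (adjusted p = 0.924). Between RIPK3 and BimS debris in cDC1s, the comparison that chose the family, the values of the lists are a description too. Past the threshold were 8 of 117 genes, beside 4.15% of all genes. Ripk2, a kinase that acts with NOD2, was higher with RIPK3 debris, with a log2 fold change of 0.46. The other 7 were lower, with log2 fold changes of -0.41 for Tnip3, -0.35 for Smurf1, -0.33 for Traf3ip3, -0.31 for Tnfrsf13b, -0.30 for Tgfbr1, -0.25 for Otub1 and -0.18 for Ikbkb. They were 1 of 15 receptor genes, 2 of 26 adapters and kinases, 2 of 23 ubiquitin genes, 1 of 8 TRAF-interacting proteins and 2 of 7 partners of TRAF4. In cDC2s 0 of 119 were called by edgeR between RIPK3 and BimS debris, beside 0.379% of all genes, and 5 were higher and 11 lower at an unadjusted p under 0.05.

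The replicate block raised the number of calls in many of the lists and lowered it in none, beside the rise over all genes. For RIPK3 debris over WT medium in cDC2s, beside 21.4% of all genes, the block called 4 receptor genes higher and 4 lower, 5 ubiquitin genes higher and 6 lower, 1 TRAF-interacting protein higher and 3 lower, 3 partners of TRAF4 lower, 3 NF-kB genes higher and 2 lower, 2 MATH-domain proteins lower and 7 of 9 genes of mature dendritic cells lower. In cDC1s, beside 21.0% of all genes, it called 4 adapters and kinases higher and 6 lower and 2 NF-kB genes higher and 3 lower. The other lists moved by at most 1.5 times in these comparisons. For BimS debris over WT medium in cDC2s, beside 21.3% of all genes, it called 10 of 18 receptor genes, 3 of 13 ligands, 13 of 26 adapters and kinases and 8 of 23 ubiquitin genes. It also called 4 of 8 TRAF-interacting proteins, 3 of 7 partners of TRAF4, 2 of 11 NF-kB genes, 2 of 4 MATH-domain proteins and 6 of 9 genes of mature dendritic cells. In cDC1s, beside 17.9%, it called 11 of 26 adapters and kinases, 7 of 11 NF-kB genes and 7 of 9 genes of mature dendritic cells for BimS debris. Between RIPK3 and BimS debris in cDC2s, beside 14.3%, it called 7 of 18 receptor genes, 1 of 13 ligands, 8 of 26 adapters and kinases, 5 of 23 ubiquitin genes, 2 of 7 partners of TRAF4, 4 of 11 NF-kB genes, 1 of 4 MATH-domain proteins and 5 of 9 genes of mature dendritic cells. The same comparison in cDC1s, which chose the family, is a description with the block too. There 3 of 15 receptor genes, 7 of 26 adapters and kinases, 2 of 11 NF-kB genes and 2 of 9 genes of mature dendritic cells were past the threshold. They stand beside 1730 of all 19513 genes, against 810 without the block.

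The other members ran with different genes over the 17 samples, as a description dominated by the cell type. The most alike were Clptm1 for Traf2 (r = 0.992), Myh9 for Traf3 (0.977), Rala for Traf5 (0.995), Ubxn7 for Traf6 (0.986) and Sertad1 for Traf7 (0.994). Map3k1, a kinase downstream of TRAF2 and TRAF6, was second for Traf6 (0.982).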

How the data were processed

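Poly(A) RNA of 17 samples was sequenced. The authors trimmed reads with SeqPurge, aligned them to GRCm39 with STAR 2.7.10a and Ensembl gene models, and made the deposited counts per gene with gensum, without normalization. Whether strand was used in counting is not given in the sources used here. The deposited log2 values are the authors' transform of the same counts, scaled by total counts, and served as an alternative. Lines without a gene identifier (148, up to 0.0366% of a sample's counts) were left out. Symbols, exon lengths and coordinates came from GENCODE M39, which matched 30854 of 31091 identifiers.

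Libraries of 16.1 to 21.6 M counts were fitted with edgeR 4.0.16 (R 4.3.3; TMM, robust quasi-likelihood, genes above 0 in at least 50% of samples), for cDC1s, for cDC2s, and for all groups where the cell types were compared. DESeq2 1.42.0 and limma 3.58.1 were alternatives, as were RLE scaling, other filters, a replicate block and leaving out each sample. The study's own design used limma on log2(count + 1). Samples of a cell type with the same replicate number in the labels deviated together (16 of 16 pairs with r over 0.1, median 0.355; 4 of 32 pairs of different numbers), so blocked values are given for members whose call they change and, as counts, for lists. P-values measure the spread between these samples, which came from pooled spleens. Intervals cover the fitted spread. The members and lists were chosen with earlier results of these data known. The genes named are all members, up to 3 called genes in each direction per list and cell type with the largest change with RIPK3 debris over WT medium among those with a mean log2 CPM of 3 or more, 9 preset genes, and the genes most like each member, of which 1 is not reported here. Tnfsf9, Tifa, the list genes named between RIPK3 and BimS debris and the overlapping neighbours were named after their values were seen. Scripts were tested on simulated data.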

Additional observations from a re-analysis of the deposited data

How the results depend on the processing

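No member called in the reported fits changed direction under the alternatives run. Single genes of the lists were not followed through them, apart from the counts under the block. Of values called only in an alternative, those of RIPK3 debris over WT medium changed sign with unscaled limma on log2(count + 1) for Traf2 in cDC2s (range -0.05 to 0.18) and Traf6 in cDC1s (-0.03 to 0.18). For BimS debris over WT medium in cDC1s, 0 members were called with DESeq2, limma on log2(count + 1) and limma on log2 CPM, against 1, and 0 to 1 with a sample left out. Limma on the deposited log2 values also called 1, but Traf5 in place of Traf3. For RIPK3 debris over WT medium in cDC1s, 1 was called with DESeq2, RLE, no filter and both of these limma fits, against 2 (Traf4 included), and 1 to 4 with a sample left out, the 4 being Traf3 to Traf6 without RIPK3 replicate 3. For BimS debris over WT medium in cDC2s, 1 was called with no filter, 3 with the replicate block and 0 to 1 with a sample left out, against 0. With the replicate block 3 were called for RIPK3 debris over WT medium in cDC2s and 4 for RIPK3 over BimS debris, against 1 each, and for the latter 0 to 1 with a sample left out. Over all 19239 genes the block called 4103, 4126 and 2755 in these 3 comparisons, against 1349, 1387 and 73. It put 9 values of members past the threshold and changed no other call of a member. The cause of these changes was not tested. Unscaled limma on log2(count + 1) moved the median of all genes by up to -0.17 (RIPK3 debris over WT medium in cDC2s) and 0.16 (cDC1s over cDC2s), and Traf4 kept its direction in cDC2s with RIPK3 debris and between the cell types. The group of cDC2s with RIPK3 debris held 2 samples, which limits the comparisons it enters.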
